A study of Arabidopsis thaliana with 48 samples.

Results

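Wild-type seedlings sampled 0.5 h after addition of the solvent DMSO were compared with wild-type seedlings of the DMSO series sampled at 0 h. The members of this comparison are the 6 libraries that carry the wild-type, mock and 0.5 h or 0 h labels, 3 at each time, out of 48 libraries in the series. All came from whole, 7-day-old Arabidopsis thaliana Col-0 seedlings grown in liquid half-strength Murashige-Skoog medium with 0.25% sucrose, at 22 °C in cycles of 16 h light and 8 h dark. The line called wild type (WT) carries aequorin, a transgenic calcium reporter, and card1-2 (card1) carries a mutation in CARD1, which encodes a receptor kinase. The rest of the series adds samples at 1 h and 6 h, card1 at all 4 times, and 5 µM of the quinone DMBQ (2,6-dimethoxy-1,4-benzoquinone) in place of DMSO alone. In the DMSO series the step to 0.5 h is the common background of every DMBQ response at that time. It holds the solvent, the handling of the culture vessel and the passing of 0.5 h of the day together, and these cannot be told apart, because every 0.5 h library received DMSO or DMBQ. Replicates are numbered in the labels, but separate cultures are not stated. The p-values rest on variation among libraries within the 16 groups of all 48 libraries, not of these 6 alone, and part of it may be technical. In RNA from whole seedlings, fewer cells of a type and less RNA per cell cannot be told apart.

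Plants that are touched, shaken or splashed show a fast wave of transcription within minutes. Calcium enters the cytosol, calmodulins and calcium-dependent kinases pass the signal on, and genes for transcription factors of the WRKY, ERF, DREB, ZAT and MYB families are switched on for a short time. The classical TOUCH genes, which encode calmodulin-like proteins and a cell wall enzyme, were found in Arabidopsis sprayed with water. Many promoters of such genes carry CGCG-type elements, the binding sites of the calmodulin-binding CAMTA factors, and the related rapid stress response element.

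The 6 libraries held 5420290 to 11201363 gene counts, and Spearman's rho across genes was 0.988 to 0.992 between libraries of the same time. CARD1 (AT5G49760), the targeted gene of the series, stood at 90.14, 85.6 and 95.3 CPM at 0.5 h, against 92.2, 84.8 and 92.0 CPM at 0 h, levels that overlapped (adjusted p = 0.971). In card1 in DMSO the 0.5 h libraries averaged 27.8 ± 2.30 CPM and the 0 h libraries 30.3 ± 1.07 CPM (mean ± SD of 3 libraries each). The labelled tissue was borne out by its markers: the shoot marker CAB2 had 3469 to 3909 CPM at 0.5 h and 3581 to 4288 CPM at 0 h, and the root marker PYK10 had 1939 to 2256 CPM at 0.5 h and 2275 to 2476 CPM at 0 h. Of 10 root markers, NRT2:1 was near 0, with 9 counts in the 6 libraries. Of the flower and pollen markers, VGD1 had no count and AP3 had 5. None of the 21 markers tested was called by edgeR or DESeq2 or had an unadjusted p under 0.05, although the seed storage gene CRA1 ranged from 1.02 to 17.2 CPM at 0.5 h and from 2.02 to 4.48 CPM at 0 h. In other fits to all libraries of the groups up to 3 shoot markers and 1 root marker were called. PYK10, LHCB3, GAPA and NRT2:1 did not overlap between the times and were lower at 0.5 h. Of all genes tested 26.2% did not overlap. The first principal component of the 6 libraries held 40.3% of the variance and placed the 3 libraries of 0.5 h on one side and those of 0 h on the other.

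Of 19839 genes tested, 1676 (8.45%) differed between 0.5 h and 0 h at an adjusted p under 0.05. At 0.5 h 1040 were higher (5.24% of the genes tested) and 636 were lower (3.21%). The split was more even in some fits: 896 higher and 825 lower with library totals alone, and 713 higher and 636 lower without 0 h replicate 2. Higher genes also showed the larger changes, with 222 at least 2-fold higher and 71 at least 2-fold lower, and 33 at least 4-fold higher and 8 at least 4-fold lower. For 1609 of the 1676 genes (96.0%) the 3 values at 0.5 h did not overlap the 3 at 0 h, as for 5191 (26.2%) of all genes tested. The count of calls depended on single libraries: it was 1015 without 0 h replicate 3, 1059 without 0.5 h replicate 1 and 1110 without 0.5 h replicate 3. Levels are gene counts scaled to library size with TMM factors (CPM), and fold changes are log2 values of 0.5 h minus 0 h with the model's standard error.

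**Figure D1:**
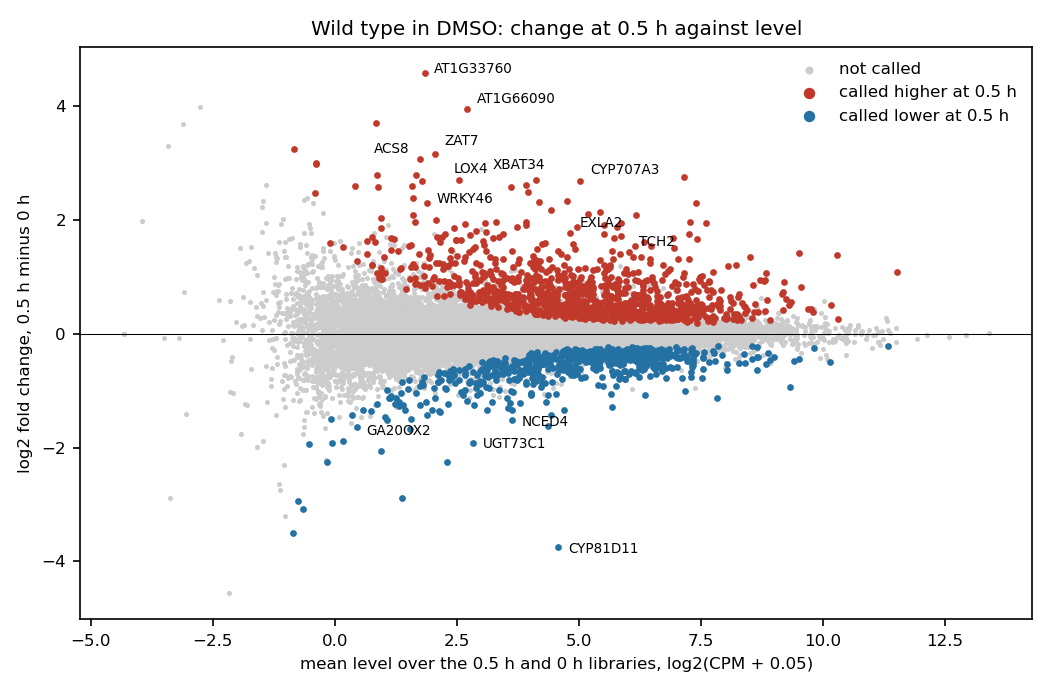
Log2 fold change (0.5 h minus 0 h, y axis) against mean level (log2(CPM + 0.05), x axis) for the 19839 genes tested in wild type in DMSO. Each point is 1 gene; the 1040 genes called higher and the 636 called lower are coloured, and the higher side reaches further from 0 among genes of low and middle level.

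The promoters of 6 genes among the largest rises are shown because they hold a short element. Each sequence below is the 250 bases before the annotated transcript start on the gene's strand, from the RefSeq assembly TAIR10.1, and capitals mark every match, on either strand, to CGCGTT (the rapid stress response element), CCGCGT (the CM2 CAMTA element) or ACGCGT (the CG-1 element). These 3 overlap each other, so that the 7 bases of ACGCGTT count for both the CG-1 and the rapid stress response element. AT1G66090 has its matches 49 and 48 bases before the start (chr1:24601783-24602032, plus strand), ZAT7 at 141 and 134 (chr3:16926884-16927133, minus strand), ACS8 at 137 and 136 (chr4:17751829-17752078, plus strand), LOX4 at 179 (chr1:27308263-27308512, plus strand), EXLA3 in 2 clusters from 144 and 80 (chr3:16892452-16892701, plus strand), and XTH18 at 76 and 75 (chr4:14827212-14827461, minus strand).
AT1G66090: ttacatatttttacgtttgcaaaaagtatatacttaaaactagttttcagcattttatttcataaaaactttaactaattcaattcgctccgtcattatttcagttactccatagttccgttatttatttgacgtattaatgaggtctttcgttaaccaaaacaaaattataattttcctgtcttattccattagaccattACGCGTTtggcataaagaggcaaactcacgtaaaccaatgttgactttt
ZAT7: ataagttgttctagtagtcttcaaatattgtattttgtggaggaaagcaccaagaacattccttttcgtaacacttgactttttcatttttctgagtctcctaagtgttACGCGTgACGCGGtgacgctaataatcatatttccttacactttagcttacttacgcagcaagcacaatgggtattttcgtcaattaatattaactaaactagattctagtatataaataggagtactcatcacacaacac
ACS8: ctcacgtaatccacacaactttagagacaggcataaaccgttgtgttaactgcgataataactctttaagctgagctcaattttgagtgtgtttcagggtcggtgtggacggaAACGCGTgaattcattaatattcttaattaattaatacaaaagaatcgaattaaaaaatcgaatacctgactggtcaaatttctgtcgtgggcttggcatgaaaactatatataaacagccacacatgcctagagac
LOX4: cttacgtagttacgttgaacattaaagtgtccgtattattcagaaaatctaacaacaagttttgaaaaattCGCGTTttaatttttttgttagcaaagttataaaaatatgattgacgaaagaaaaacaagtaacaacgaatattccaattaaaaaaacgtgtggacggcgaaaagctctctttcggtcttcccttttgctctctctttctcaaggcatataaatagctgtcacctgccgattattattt
EXLA3: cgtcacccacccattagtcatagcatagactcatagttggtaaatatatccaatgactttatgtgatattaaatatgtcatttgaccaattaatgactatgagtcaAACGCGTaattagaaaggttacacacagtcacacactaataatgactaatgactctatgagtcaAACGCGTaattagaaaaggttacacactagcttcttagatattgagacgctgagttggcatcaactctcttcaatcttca
XTH18: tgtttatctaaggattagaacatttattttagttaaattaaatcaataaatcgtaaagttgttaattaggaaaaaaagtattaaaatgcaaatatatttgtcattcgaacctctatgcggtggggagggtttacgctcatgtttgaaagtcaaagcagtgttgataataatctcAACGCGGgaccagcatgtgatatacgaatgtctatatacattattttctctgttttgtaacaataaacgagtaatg

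Among the 20 largest rises given by name, 19 are nuclear genes with such a window and 8 of those held at least 1 of the 3 elements: the 6 above, AT4G02170 and DIC2. Over all protein-coding genes tested, 938 of 19239 windows (4.88%) held one. The share was 13.9% of the 994 windows of genes called higher, 22.4% of the 196 that were at least 2-fold higher, and 2.69% of the 632 called lower. The rapid stress response element alone was in 9.05% of windows of higher genes, against 2.88% of all windows. The W-box core TTGACT, bound by WRKY factors, was in 32.1% of windows of genes at least 2-fold higher, against 18.7% of all windows, whereas TTGACC was in 14.8%, against 12.2%. Shares lay closer together for the GCC-box GCCGCC of ERF factors (2.04% of genes at least 2-fold higher, against 1.95% of all) and the DRE core CCGAC (13.8%, against 13.3%). Shares also lay apart for the heat shock element GAANNTTC (17.3% of windows of genes at least 2-fold higher, against 9.40% of all) and the evening element AAAATATCT (4.59%, against 2.48%). The G-box CACGTG was in 9.81% of windows of genes called lower, against 7.42% of all. A match is a run of letters and not a shown binding site, and windows without one include those of CYP707A3, BCS1 and WRKY46 among the named rises.

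Transcription factor genes were among the 20 largest rises. ZAT7, a C2H2 zinc finger repressor, had 8.37, 2.57 and 10.9 CPM at 0.5 h, against 1.28, 0.189 and 1.16 CPM at 0 h (log2 fold change 3.15 ± 0.70, adjusted p = 0.00352), and its lowest library at 0.5 h was still above the highest at 0 h. WRKY46 had 7.15, 3.90 and 7.49 CPM at 0.5 h, against 0.733, 1.61 and 1.01 CPM at 0 h (log2 fold change 2.29 ± 0.59, adjusted p = 0.0114). Both were near 1 CPM at 0 h, so each value there rests on few counts. AT5G51190, annotated as an AP2/ERF-type ("integrase-type") DNA-binding protein, had 25.1, 19.0 and 35.7 CPM at 0.5 h, against 3.85, 4.93 and 4.91 CPM at 0 h (log2 fold change 2.49 ± 0.40, adjusted p = 0.000118). Another such protein, AT1G33760, was not eligible by the rule for naming and was singled out after its values were seen, with 5.80, 4.87 and 9.70 CPM at 0.5 h, against 0.183, 0.189 and 0.433 CPM at 0 h (log2 fold change 4.57 ± 0.69, adjusted p = 7.42e-05). AT5G01380, a homeodomain-like protein, had 7.56, 2.92 and 5.96 CPM at 0.5 h, against 0.733, 0.474 and 1.16 CPM at 0 h (log2 fold change 2.79 ± 0.61, adjusted p = 0.00261).

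Each of the 5 lists of transcription factors had a positive median, and a minority of members passed the test. Beside the list counts here and below stand the shares over all genes tested, 5.24% called higher and 3.21% called lower. Of 34 WRKY genes tested, 4 were called higher and 1 lower, with a median log2 fold change of 0.31, against 0.00 over all genes tested. WRKY18 and WRKY70, both regulators of defence, rose by 1.72 ± 0.34 and 1.86 ± 0.44 (adjusted p = 0.00119 and 0.00562), and WRKY33 by 0.96 ± 0.28. Of 24 ERF genes, 6 rose and none fell (median 0.32), among them ERF6 (1.59 ± 0.32, adjusted p = 0.00127), ERF5 and ERF13. Of 18 CBF and DREB genes tested, 4 rose (median 0.51), and DREB26, with the smallest adjusted p of the 4, had 111, 95.6 and 161 CPM at 0.5 h, against 72.4, 36.2 and 48.8 CPM at 0 h (log2 fold change 1.24 ± 0.29, adjusted p = 0.00481). Of the CBF genes, CBF1, DREB1A and CBF4 did not pass the filter on low counts, and CBF2 was tested but not called. The ZAT and CCCH zinc finger list gave 3 rises of 18, where SZF1, a salt-inducible CCCH protein, had 127, 98.7 and 171 CPM at 0.5 h, against 56.1, 36.9 and 43.8 CPM at 0 h (log2 fold change 1.54 ± 0.34, adjusted p = 0.00344). Of 19 MYB, NAC and other early regulators, 6 rose and none fell, and MYB73 was higher by 1.04 ± 0.17 (adjusted p = 7.51e-05). When 1 library was left out, these counts ran from 2 to 4 (WRKY), 3 to 6 (ERF), 1 to 5 (CBF and DREB), 2 to 3 (zinc fingers) and 4 to 6 (MYB, NAC and others). WRKY46 lost its call without 0.5 h replicate 1 or 0 h replicate 3 (adjusted p up to 0.0541), WRKY33 without 0.5 h replicate 3, 0 h replicate 2 or 0 h replicate 3 (up to 0.154), ERF5 without 0.5 h replicate 3 or 0 h replicate 3 (up to 0.127) and ERF13 without 0 h replicate 2 (0.051).

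Genes with a TIR domain, the signalling part of 1 class of intracellular immune receptor, were prominent at 0.5 h. AT1G66090, a TIR-NBS protein and the largest rise among the genes eligible by the rule for naming, had 13.1, 7.00 and 16.3 CPM at 0.5 h, against 1.1, 0.474 and 0.867 CPM at 0 h (log2 fold change 3.95 ± 0.65, adjusted p = 0.000132). AT2G20142, annotated with a TIR domain alone, had 24.4, 17.9 and 35.9 CPM at 0.5 h, against 3.48, 4.07 and 4.91 CPM at 0 h (log2 fold change 2.6 ± 0.33, adjusted p = 5.16e-06). The full-length receptor gene AT5G41750 (TIR-NBS-LRR) had 22.8, 12.2 and 27.1 CPM at 0.5 h, against 4.22, 2.94 and 3.32 CPM at 0 h (log2 fold change 2.56 ± 0.47, adjusted p = 0.000517). In each of these 3 genes every library at 0.5 h was above every library at 0 h. The last 2 are not on the list of TIR-domain genes. Of the 18 tested members of the TIR-domain list 5 were called higher and none lower (3 to 6 called when 1 library was left out), including AT1G72920 (2.59 ± 0.47, adjusted p = 0.000232) and AT1G72900, whose call was lost without 0.5 h replicate 3 or 0 h replicate 2 (adjusted p up to 0.074). AT1G72900, AT1G72920 and AT1G72940, another of the 5, are related genes, and reads shared between copies may have been split or dropped.

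Other immune genes showed smaller changes. SAG101, which acts with EDS1 downstream of TIR receptors, had 47.2, 39.9 and 45.4 CPM at 0.5 h, against 21.1, 22.6 and 22.7 CPM at 0 h (log2 fold change 0.99 ± 0.14, adjusted p = 9.37e-06). SARD1, a regulator of salicylic acid synthesis, had 10.1, 8.77 and 13.8 CPM at 0.5 h, against 4.40, 3.70 and 3.18 CPM at 0 h (log2 fold change 1.51 ± 0.33, adjusted p = 0.00222). Of 26 genes of pattern-triggered immunity 7 were called higher and 1 lower (median 0.11; 5 to 8 called when 1 library was left out). The co-receptor kinases SERK4 and SOBIR1 both rose by 0.80 (adjusted p = 0.000262 and 0.000356), and the receptor-associated kinase BIK1 fell, with 43.0, 38.2 and 38.8 CPM at 0.5 h, against 55.7, 48.2 and 64.0 CPM at 0 h (log2 fold change -0.48 ± 0.10, adjusted p = 0.00138). In the salicylic acid list 3 of 18 tested members rose and none fell, at a median of -0.02. Of all genes tested 5.24% were called higher. XBAT34, annotated as an uncharacterized protein and on no list, had 35.2, 20.4 and 34.7 CPM at 0.5 h, against 4.95, 3.41 and 5.78 CPM at 0 h (log2 fold change 2.70 ± 0.37, adjusted p = 1.46e-05).

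Calmodulins and touch-induced proteins, which bind calcium, were among the genes that rose. Of the list of calmodulin-like and touch genes, 9 of 21 tested members rose and none fell (median 0.41). When 1 library was left out 4 to 7 were called, 4 without 0.5 h replicate 3 and 5 without 0.5 h replicate 1 or any 1 of the 0 h libraries. TCH2, a calmodulin-like protein found by its induction by touch, had 106, 76.5 and 101 CPM at 0.5 h, against 45.7, 26.5 and 33.8 CPM at 0 h (log2 fold change 1.44 ± 0.23, adjusted p = 0.000124). TCH3, another calmodulin-like protein, had 575, 543 and 620.2 CPM at 0.5 h, against 261, 390.5 and 258 CPM at 0 h (log2 fold change 0.93 ± 0.16, adjusted p = 0.0002). These levels did not overlap between the times in either gene. AT5G39670, an EF-hand protein, rose by 1.99 ± 0.52, a call lost without 0.5 h replicate 3 or 0 h replicate 2 (adjusted p up to 0.102). The canonical calmodulin genes CAM1, CAM2, CAM3, CAM7 and CAM9 rose by 0.23 to 0.41; several encode identical proteins from similar sequences, so their separate counts are uncertain.

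Kinases that act downstream of calcium also rose. Of 20 calcium pumps, kinases and CAMTA factors, 8 were called higher and 1 lower (median 0.24). When 1 library was left out 6 to 9 were called. The rises were CPK1, CPK5, CPK6, CPK28, CPK32, ACA1, CBP60G and EDA39. None of these is a CAMTA factor, and the fall was EICBP.B, a CAMTA factor. CPK28, a calcium-dependent kinase that tunes immune signalling, had 116, 91.4 and 124 CPM at 0.5 h, against 47.7, 44.4 and 37.4 CPM at 0 h (log2 fold change 1.35 ± 0.22, adjusted p = 0.000103). CPK32 rose by 0.93 ± 0.21, CPK6 by 0.53 ± 0.09 and CPK5 by 0.43 ± 0.08 (adjusted p = 0.00361, 0.000103 and 0.000599). In the mitogen-activated protein kinase cascade 5 of 22 members rose and none fell (median 0.18; 3 to 5 called when 1 library was left out). MPK3, the stress-activated kinase at its end, had 157, 126 and 184 CPM at 0.5 h, against 70.6, 75.8 and 70.1 CPM at 0 h (log2 fold change 1.1 ± 0.19, adjusted p = 0.000177), with no overlap between the times. Upstream of it MEKK1 rose by 0.61 ± 0.11 and MKK4 by 0.82 ± 0.16.

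**Figure D2:**
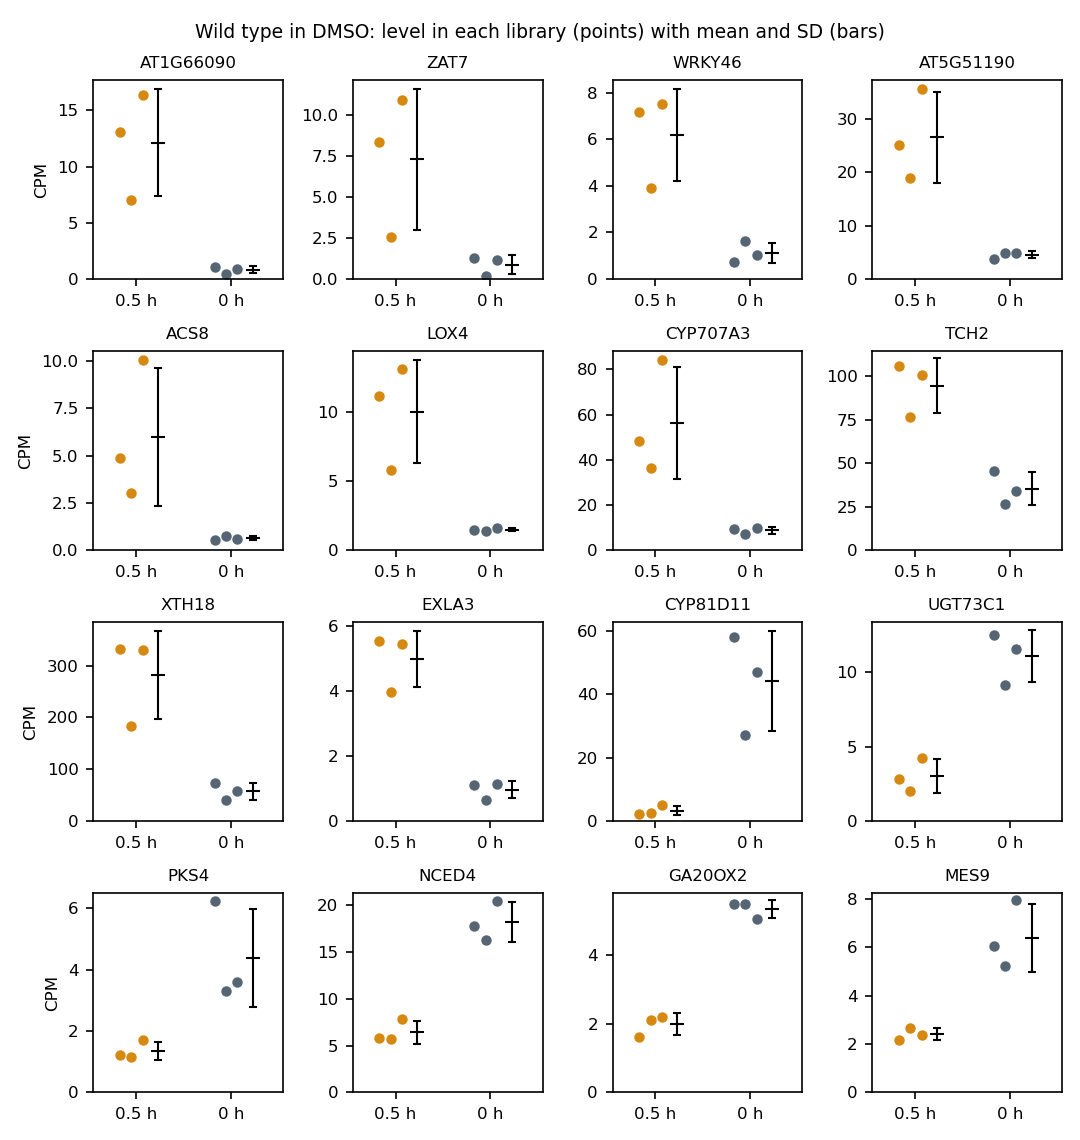
Level in CPM (y axis, from 0) of 16 genes in each wild-type DMSO library at 0.5 h (left, orange) and 0 h (right, grey); points are libraries in the order of replicates 1 to 3, bars are mean and SD of 3 libraries. In all 16 genes the points of the 0.5 h libraries lie on one side of the points of the 0 h libraries, and in all 10 rising genes shown 0.5 h replicate 2 is the lowest of its 3.

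Several enzymes that set hormone levels changed. ACS8 and ACS11 encode ACC synthases, the committed step of ethylene synthesis. ACS8 had 4.86, 3.01 and 10 CPM at 0.5 h, against 0.550, 0.758 and 0.578 CPM at 0 h (log2 fold change 3.07 ± 0.76, adjusted p = 0.00857), a call lost without 0.5 h replicate 3 (adjusted p = 0.0665). ACS11 had 32.3, 29.7 and 43.6 CPM at 0.5 h, against 7.88, 6.92 and 8.67 CPM at 0 h (log2 fold change 2.17 ± 0.36, adjusted p = 0.000136). The related ACS5 was called lower, with 0, 2 and 0 counts at 0.5 h, against 1, 16 and 8 counts at 0 h, and lost its call without 0.5 h replicate 1 or 0 h replicate 2 (adjusted p up to 0.119). With ACS5 and the ethylene signalling protein EIN2 (-0.37 ± 0.10, adjusted p = 0.015) called lower, the ethylene list held 2 rises and 2 falls among 21 tested members, and 2 to 4 were called when 1 library was left out. The shares over all genes tested were 5.24% higher and 3.21% lower. EIN2 lost its call without 0.5 h replicate 3 (adjusted p = 0.103).

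For jasmonate, 2 of 19 synthesis and turnover genes rose and none fell, near the 8.45% of all genes tested that were called. LOX4, a 13-lipoxygenase that starts the pathway, had 11.2, 5.84 and 13.1 CPM at 0.5 h, against 1.47, 1.42 and 1.59 CPM at 0 h (log2 fold change 2.69 ± 0.62, adjusted p = 0.00487). CYP94C1, which oxidises the active hormone, rose by 1.78 ± 0.57, at an adjusted p of 0.0482 that passed 0.05 in only 1 of 6 fits with a library left out. None of 19 jasmonate signalling genes was called by edgeR (median 0.00), 2 had an unadjusted p under 0.05 and DESeq2 called 1; the repressor gene JAZ1 had a log2 fold change of 0.39 ± 0.41 and JAZ5 of 0.75 ± 0.67 (adjusted p = 0.657 and 0.59).

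Enzymes that break down abscisic acid changed in both directions. CYP707A3, an abscisic acid 8'-hydroxylase, had 48.3, 36.2 and 84.2 CPM at 0.5 h, against 9.17, 7.11 and 9.97 CPM at 0 h (log2 fold change 2.69 ± 0.37, adjusted p = 1.49e-05). CYP707A1, of the same family, rose by 1.28 ± 0.25 (adjusted p = 0.000449), and CYP707A2 was called lower (log2 fold change -1.26 ± 0.37, adjusted p = 0.0269). Of 33 abscisic acid genes tested, 8 rose and 1 fell (median 0.22), and 3 to 6 were called when 1 library was left out. PP2CA, a phosphatase that represses the response, rose by 0.97 ± 0.20 (adjusted p = 0.000983). NCED3, which encodes the main stress-induced enzyme of its synthesis, did not pass the filter on low counts.

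A gene of gibberellin inactivation rose and a gene of gibberellin synthesis fell. GA2OX2, a gibberellin 2-oxidase that inactivates the hormone, had 17.5, 11.9 and 17.2 CPM at 0.5 h, against 2.93, 3.03 and 5.92 CPM at 0 h (log2 fold change 1.96 ± 0.26, adjusted p = 4.02e-06). GA20OX2, a gibberellin 20-oxidase of synthesis, had 1.62, 2.13 and 2.21 CPM at 0.5 h, against 5.50, 5.50 and 5.06 CPM at 0 h (log2 fold change -1.42 ± 0.30, adjusted p = 0.00131). Neither gene's values overlapped between the times. GA3OX1, of synthesis, and GA2OX6, of inactivation, were not called (-0.28 ± 0.25 and 0.17 ± 0.34, adjusted p = 0.602 and 0.849). With BZR1, a factor of brassinosteroid signalling (0.43 ± 0.08, adjusted p = 0.000574), and the cytokinin response regulator RR3 (-0.63 ± 0.16), 2 of 24 members of the joint gibberellin, cytokinin and brassinosteroid list rose and 2 fell. Among all genes tested 5.24% were called higher and 3.21% lower. RR3 lost its call without 0.5 h replicate 2 or 0 h replicate 3 (adjusted p up to 0.169).

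Among 42 auxin genes, 3 rose and 4 fell (median -0.12), where 5.24% of all genes tested were called higher and 3.21% lower. When 1 library was left out 5 to 7 were called. IAA2, an early auxin-induced repressor, had 192, 171 and 199.97 CPM at 0.5 h, against 94.1, 119.6 and 68.6 CPM at 0 h (log2 fold change 0.99 ± 0.17, adjusted p = 0.000185). DFL1, a GH3 enzyme that conjugates auxin to amino acids, had 35.6, 39.4 and 42.7 CPM at 0.5 h, against 59.2, 71.8 and 63.3 CPM at 0 h (log2 fold change -0.73 ± 0.11, adjusted p = 1.69e-05). Both are known as auxin-induced genes, and they changed in opposite directions.

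Cell wall genes were called higher more often than lower. In the list of xyloglucan endotransglucosylases and expansins 9 of 34 tested members rose and 2 fell (median 0.20), and 7 to 11 were called when 1 library was left out. XTH18, one of the enzymes that cut and rejoin wall xyloglucan, had 332, 183 and 331 CPM at 0.5 h, against 73.9, 41 and 59.1 CPM at 0 h (log2 fold change 2.30 ± 0.33, adjusted p = 2.27e-05). XTH15 had 127, 149 and 99.6 CPM at 0.5 h, against 46.2, 62.6 and 42.8 CPM at 0 h (log2 fold change 1.3 ± 0.18, adjusted p = 1.75e-05). The abundant XTH4 had 819.8, 734 and 752 CPM at 0.5 h, against 531, 516 and 521 CPM at 0 h (log2 fold change 0.56 ± 0.07, adjusted p = 4.02e-06). TCH4, the touch-induced member of the family and also one of the touch genes counted above, rose by 1.34 ± 0.39 (adjusted p = 0.0248). EXPA8, an expansin, and XTH31 fell by 0.86 and 0.93 on the log2 scale. XTH17, XTH18 and XTH19 are close neighbours in sequence, and their separate counts are uncertain. Outside the list, EXLA3, an expansin-like protein, had 5.53, 3.99 and 5.45 CPM at 0.5 h, against 1.1, 0.663 and 1.16 CPM at 0 h (log2 fold change 2.39 ± 0.62, adjusted p = 0.0111), a call lost without 0 h replicate 2 (adjusted p = 0.0788). EXLA2, named after its values were seen, had the smallest p of all genes, with 55.9, 31.8 and 42.5 CPM at 0.5 h, against 11.6, 12.5 and 13.6 CPM at 0 h (log2 fold change 1.77 ± 0.19, adjusted p = 6.89e-07).

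Genes of mitochondrial proteins were among the largest rises. DIC2, a mitochondrial dicarboxylate carrier, had 45.6, 23.7 and 65.4 CPM at 0.5 h, against 11.2, 4.83 and 11.7 CPM at 0 h (log2 fold change 2.32 ± 0.55, adjusted p = 0.00617), and its call was lost without 0 h replicate 2 (adjusted p = 0.0574). UCP5, a carrier of the same family, had 75.2, 50.7 and 85.4 CPM at 0.5 h, against 21.8, 14.2 and 12.9 CPM at 0 h (log2 fold change 2.13 ± 0.33, adjusted p = 6.69e-05). BCS1, an AAA-type ATPase of mitochondria often used as a marker of stress there, had 34.1, 19.0 and 38.0 CPM at 0.5 h, against 6.78, 5.31 and 6.21 CPM at 0 h (log2 fold change 2.31 ± 0.37, adjusted p = 0.000103). In all 3 genes the values at 0.5 h were above those at 0 h. BCS1 was the only 1 of 28 tested members of the list of detoxification and the retrograde response to be called higher (median -0.31). AOX1A, AT2G21640, NDB2 and NDA2, also on that list, were not called.

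The largest named fall was in a gene of detoxification. CYP81D11, a cytochrome P450 known for its induction by foreign chemicals, had 2.43, 2.66 and 5.11 CPM at 0.5 h, against 58.1, 27.1 and 47.1 CPM at 0 h (log2 fold change -3.74 ± 0.61, adjusted p = 0.000126), the largest fall among the genes eligible to be named. UGT73C1, a UDP-glucosyltransferase, had 2.83, 2.04 and 4.25 CPM at 0.5 h, against 12.5, 9.10 and 11.6 CPM at 0 h (log2 fold change -1.91 ± 0.53, adjusted p = 0.0183). Its call was lost without 0.5 h replicate 1, 0.5 h replicate 2, 0 h replicate 1 or 0 h replicate 3 (adjusted p up to 0.109). CYP81D8 had 2.56, 2.83 and 3.57 CPM at 0.5 h, against 5.87, 7.96 and 6.79 CPM at 0 h (log2 fold change -1.24 ± 0.28, adjusted p = 0.00256). In the list of detoxification and the retrograde response 4 of 28 tested members fell and 1, BCS1, rose (median -0.31; 3 to 5 called when 1 library was left out). UGT73C1 is not on that list. Besides CYP81D11 and CYP81D8, the members that fell were GSTU1, a glutathione transferase (-1.20 ± 0.30), whose call was lost without 0.5 h replicate 1 (adjusted p = 0.0661), and UGT73B4 (-1.35 ± 0.42), whose call was lost without replicate 1 or 2 of 0.5 h or replicate 1 or 2 of 0 h (adjusted p up to 0.207).

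Other large falls spread over several functions. NCED4, a carotenoid cleavage dioxygenase, had 5.80, 5.67 and 7.83 CPM at 0.5 h, against 17.8, 16.3 and 20.5 CPM at 0 h (log2 fold change -1.52 ± 0.19, adjusted p = 2.52e-06). MES9, a methyl esterase, had 2.16, 2.66 and 2.38 CPM at 0.5 h, against 6.05, 5.21 and 7.95 CPM at 0 h (log2 fold change -1.38 ± 0.23, adjusted p = 0.000114). PKS4, which acts in phototropin and phytochrome signalling, had 1.21, 1.15 and 1.70 CPM at 0.5 h, against 6.23, 3.32 and 3.61 CPM at 0 h (log2 fold change -1.67 ± 0.50, adjusted p = 0.0292), with its call lost without 0.5 h replicate 1, 0.5 h replicate 2, 0 h replicate 1 or 0 h replicate 3 (adjusted p up to 0.134). SPA1, a partner of the light repressor COP1, had 43.0, 36.3 and 43.4 CPM at 0.5 h, against 88.6, 50.1 and 76.7 CPM at 0 h (log2 fold change -0.80 ± 0.19, adjusted p = 0.00445). It and SIGE, a plastid sigma factor (-1.31 ± 0.31), were the 2 falls among 15 light and shade genes, of which none rose. Of all genes tested 3.21% were called lower. SIGE lost its call without 0.5 h replicate 2 or 0 h replicate 3 (adjusted p up to 0.0596). BGLU34 and BGLU35, beta-glucosidase genes of similar sequence whose separate counts are uncertain, had 8.64, 11.0 and 10.4 CPM (BGLU34) and 12.3, 13.5 and 8.68 CPM (BGLU35) at 0.5 h, against 30.3, 32 and 30.5 CPM and 30.1, 34.7 and 30.3 CPM at 0 h.

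Other lists are given beside the 8.45% of all genes that were called. None of 23 photosynthesis genes was called by edgeR (median -0.03), had an unadjusted p under 0.05 or was called by DESeq2, but 1 was called in a fit to the 6 libraries compared and 7 in that fit with the replicate block. Heat shock genes gave 2 rises of 30, both factors: HSFA3, with 25.4, 15 and 31.7 CPM at 0.5 h, against 12.5, 7.77 and 7.95 CPM at 0 h (log2 fold change 1.36 ± 0.24, adjusted p = 0.000222), and HSFB2A (0.78 ± 0.21, adjusted p = 0.0137). The chaperone genes HSP101 and HSP70 had log2 fold changes of -0.47 ± 0.20 and -0.46 ± 0.24 (adjusted p = 0.163 and 0.279). In the circadian clock list 4 of 25 were called, a share above that of all genes: PCL1, CO and TOC1 rose and ZTL fell, while CCA1, a morning factor, had -1.06 ± 0.42 (adjusted p = 0.125). The clock count ran from 1 (without 0.5 h replicate 3 or 0 h replicate 1) to 5 when 1 library was left out and was 13 with the replicate block in a fit to the 6 libraries, HSFB2A lost its call in 4 of 6 such fits (adjusted p up to 0.0824), and CO in 4 of 6 (up to 0.103). Sugar and starvation genes gave 1 fall of 15, MSS1, glucosinolate and camalexin genes 1 rise of 20, MYB51 (1.14 ± 0.24, adjusted p = 0.0022), and root hair genes 1 rise of 18, FER. MSS1 lost its call without 0.5 h replicate 1 or 0 h replicate 3 (adjusted p up to 0.163) and FER without 0.5 h replicate 1 or 0 h replicate 2 (up to 0.0889), which left no call on either list. With the replicate block in a fit to the 6 libraries, 7 sugar, 9 glucosinolate and 3 root hair genes were called.

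**Figure D3:**
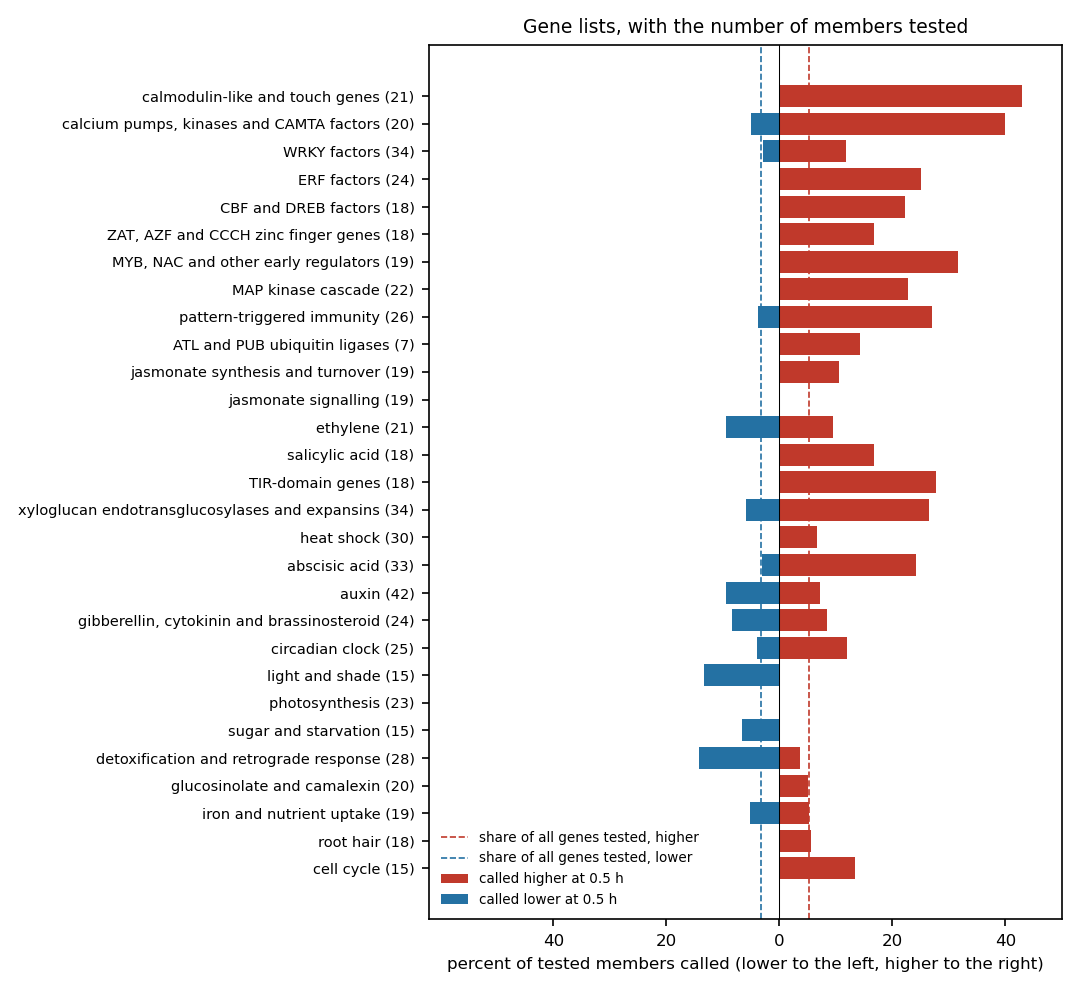
Share of the tested members of each of 29 gene lists that was called higher (to the right) or lower (to the left) at 0.5 h, in percent; the number tested stands in brackets. Dashed lines mark the shares over all genes tested, 5.24% higher and 3.21% lower. The bars to the right include 9 of 21 calmodulin-like and touch genes. They also include 8 of 20 members of the list of calcium pumps, kinases and CAMTA factors, none of the 8 a CAMTA factor.

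Most of the large rises were smaller or gone in the samples taken later. Over the times 0, 0.5, 1 and 6 h, AT1G66090 averaged 0.814 ± 0.317, 12.1 ± 4.74, 0.949 ± 0.435 and 0.104 ± 0.179 CPM (mean ± SD of 3 libraries). CYP707A3 averaged 8.75 ± 1.48, 56.3 ± 25.0, 8.33 ± 3.17 and 4.58 ± 1.44 CPM at the same 4 times. XTH18 averaged 58.0 ± 16.5, 282 ± 85.4, 139 ± 37.2 and 11.0 ± 0.694 CPM. At 1 h AT1G66090 and CYP707A3 were not called against 0 h (adjusted p = 0.836 and 0.976), XTH18 was still higher (adjusted p = 0.00457), and the means of all 3 were lowest at 6 h. TCH2 was called lower than at 0 h only at 6 h among the later times, with 35.3 ± 9.65, 94.5 ± 15.74, 21.9 ± 4.12 and 12.9 ± 1.07 CPM (adjusted p = 0.0602 at 1 h, where 18.3% of all genes were called, and 0.000174 at 6 h, where 31.2% were). The 3 comparisons share their 0 h libraries, so they are set side by side and not counted as independent. The 222 genes called at least 2-fold higher were picked at 0.5 h, so their median at that time is partly set by the choice. Their median log2 fold change against 0 h was 1.35 at 0.5 h, 0.36 at 1 h and -0.58 at 6 h.

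The falls followed several courses. CYP81D11 went on falling, with 44.1 ± 15.73, 3.40 ± 1.48, 1.62 ± 0.316 and 0.535 ± 0.278 CPM over the same 4 times, and UGT73C1 did likewise, with 11.0 ± 1.74, 3.04 ± 1.12, 1.19 ± 0.445 and 0.300 ± 0.128 CPM. NCED4 dipped at 0.5 h, partly recovered and was low again, with 18.199 ± 2.14, 6.43 ± 1.21, 12.4 ± 0.710 and 5.21 ± 0.900 CPM. PKS4 was not called against 0 h at 1 h or 6 h (adjusted p = 0.107 and 0.126), with 4.39 ± 1.61, 1.36 ± 0.301, 7.43 ± 1.58 and 2.12 ± 0.930 CPM. BGLU34 was likewise not called at 1 h or 6 h (adjusted p = 0.241 and 0.981), with 30.9 ± 0.963, 10 ± 1.22, 21.4 ± 8.84 and 30.7 ± 8.26 CPM. Over the 71 genes at least 2-fold lower at 0.5 h, the median log2 fold change against 0 h was -1.26 at 0.5 h, -1.17 at 1 h and -0.77 at 6 h. These genes, too, were picked by their values at 0.5 h.

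**Figure D4:**
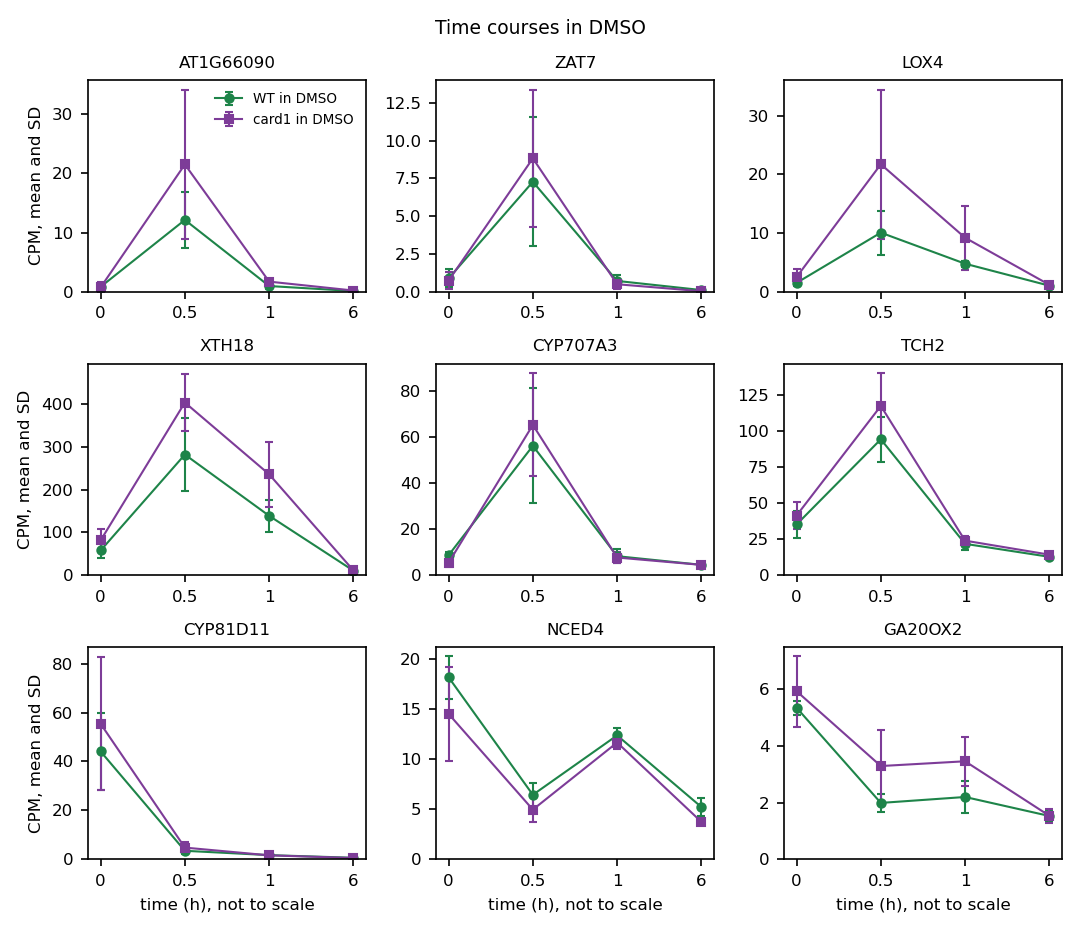
Level in CPM (y axis, from 0; mean and SD of 3 libraries) of 9 genes at 0, 0.5, 1 and 6 h (x axis, not to scale) in DMSO, in wild type (green circles) and card1 (purple squares). The 6 rising genes peak at 0.5 h in both genotypes, CYP81D11 keeps falling, and NCED4 dips, recovers in part and dips again.

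The same step in card1 shares no library with that of wild type and gave the same direction for most risers. Of the 1040 genes higher in WT, 883 (84.9%) had a positive log2 fold change in card1, as did 46.1% of all genes tested, and 656 (63.1%) were called higher there, where 11.3% of all genes tested were (21.1% in either direction). Those 656 were 29.2% of the 2250 genes called higher in card1. For the 222 genes at least 2-fold higher in WT the median was 1.35 in WT and 1.54 in card1, and 181 of them (81.5%) were called higher in card1. AT1G66090 averaged 21.5 ± 12.6 CPM at 0.5 h and 0.725 ± 0.861 CPM at 0 h in card1 (log2 fold change 4.88 ± 0.59, adjusted p = 3.05e-07), and the difference of the WT and card1 responses was -0.94 ± 1.15 (adjusted p = 0.708). ZAT7, ACS8, LOX4, TCH2, XTH18 and CYP707A3 were also called higher in card1, and for none of them was the difference of the responses called (adjusted p 0.359 to 0.993), which does not show that they were equal: for TCH2 the difference was -0.07 ± 0.33 and for CYP707A3 -0.92 ± 0.56.

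Fewer of the falls were also called in card1. Of the 636 genes lower in WT, 389 (61.2%) had a negative log2 fold change in card1, where those of 46.1% of all genes were positive. Of the 636, 206 (32.4%) were called lower in card1, where 9.78% of all genes were, and 83 (13.1%) were called higher, where 11.3% of all genes were. The 206 made up 10.6% of the 1940 genes lower in card1. Across 19714 genes the log2 fold change in card1 rose with transcript length (Spearman's rho 0.455). Among protein-coding genes the median transcript was 2414.5 bases for those called lower in WT, against 1695 bases for all tested. The part of length in the counts of rises and falls shared with card1 was not tested. CYP81D11 fell in card1 too, with 4.71 ± 2.1 CPM at 0.5 h and 55.4 ± 27.2 CPM at 0 h, as did NCED4 (log2 fold change -1.58 ± 0.21, adjusted p = 3.24e-07). By the test of the difference itself, 1269 genes (6.4%) responded differently in WT and card1, 504 (2.54%) with the higher and 765 (3.86%) with the lower response in WT. They held 215 of the 636 genes lower in WT, all with the lower response in WT, and 138 of the 1040 higher ones. The test of the difference reuses the WT libraries by which those genes were called. These counts and their direction are therefore partly set by that choice of genes. BGLU34 had 38.5 ± 10.2 CPM at 0.5 h and 26.7 ± 12 CPM at 0 h in card1, and a difference of -2.14 ± 0.47 between the responses (adjusted p = 0.00558). AT4G33810, a glycosyl hydrolase, had the largest negative difference among the named genes, -2.64 ± 0.47 (adjusted p = 0.000951).

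This count depended on single libraries. In card1 DMSO 0 h replicates 1 and 2, relative expression fell with transcript length across genes (Spearman's rho -0.518 and -0.5), whereas replicate 3 had 0.086 and the card1 libraries at 0.5 h 0.0601 to 0.138. The difference of the WT and card1 responses fell with length (rho -0.565 over 19714 genes). The 1269 calls became 356 without card1 0 h replicate 1, 425 without replicate 2, 3396 without replicate 3 and 3 without replicates 1 and 2 together. The last fit leaves 1 library for card1 at 0 h, which is assumed to vary like the other groups, so it also has less replication. They became 107 with offsets for length and GC content, and 1 in a fit to the 12 libraries compared. Scaling by library totals alone gave 1237 calls of which 24.0% were positive, against 39.7% with TMM. BGLU34 and AT4G33810 remained called with the offsets (adjusted p = 0.0218 and 0.00416) and were not called without both libraries, where their differences were -1.54 and -1.87 (adjusted p = 0.515 and 0.354).

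In wild type treated with DMBQ, the step to 0.5 h used other libraries again. Of the 1040 genes higher in DMSO, 997 (95.9%) moved the same way with DMBQ and 770 (74.0%) were called higher, where 13.7% of all genes tested were; in all 26.6% of genes were called with DMBQ. For the 636 lower ones the figures were 614 (96.5%) and 478 (75.2%), where 13% of all genes were called lower. The shared genes were 28.4% of the 2713 higher and 18.6% of the 2570 lower genes with DMBQ. AT1G66090 had 11.2 ± 5.42 CPM at 0.5 h and 1.84 ± 0.895 CPM at 0 h in the DMBQ series, and TCH2 109 ± 14.0 and 43.0 ± 16.6 CPM. Over the 222 strongest risers the median was 1.39 with DMBQ and 1.35 in DMSO. In the DMBQ libraries at 0.5 h expression also fell with transcript length (rho -0.395 to -0.437), more steeply than in the DMSO libraries at 0.5 h (-0.159 to -0.216) and at 0 h (-0.0799 to 0.0888), and the part of length in these counts was not tested.

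The responses with DMBQ and in DMSO differed in 53 genes (0.267%), 22 (0.111%) with the higher and 31 (0.156%) with the lower response with DMBQ, and 28 of them nuclear. None of the 636 genes lower in DMSO was among the 53, and of the 1040 higher ones 13 were, 11 of them organelle genes and the other 2 AT4G15070 and AT5G48560. This difference, too, reuses the DMSO libraries by which the 636 and the 1040 genes were called. All 13, with these 2 nuclear genes among them, had the lower response with DMBQ. The nuclear genes described next had the higher response with DMBQ. AT2G43120, a cupin protein, had 245 ± 25.8 CPM at 0.5 h and 7.58 ± 2.21 CPM at 0 h with DMBQ, and 9.65 ± 1.11 and 8.23 ± 2.05 CPM in DMSO (difference 4.87 ± 0.29, adjusted p = 5.67e-15). GT72B1, a UDP-glycosyltransferase that conjugates foreign phenols, differed by 2.46 ± 0.25 (adjusted p = 1.02e-07), and AT1G30700, a berberine bridge enzyme-like protein, by 2.29 ± 0.26 (adjusted p = 9.5e-07). In DMSO their own log2 fold changes were 0.24 ± 0.19 and -0.37 ± 0.20 (adjusted p = 0.507 and 0.301). The count of 53 ran from 22 (without WT DMSO 0.5 h replicate 2) to 93 (without WT DMBQ 0 h replicate 1) when 1 library was left out, with 28 to 30 without WT DMBQ 0 h replicate 2, WT DMSO 0 h replicate 3 or WT DMBQ 0.5 h replicate 1. It was 104 with DESeq2, 93 with the replicate block and 18 when organelle genes were left out of the fit.

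**Figure D5:**
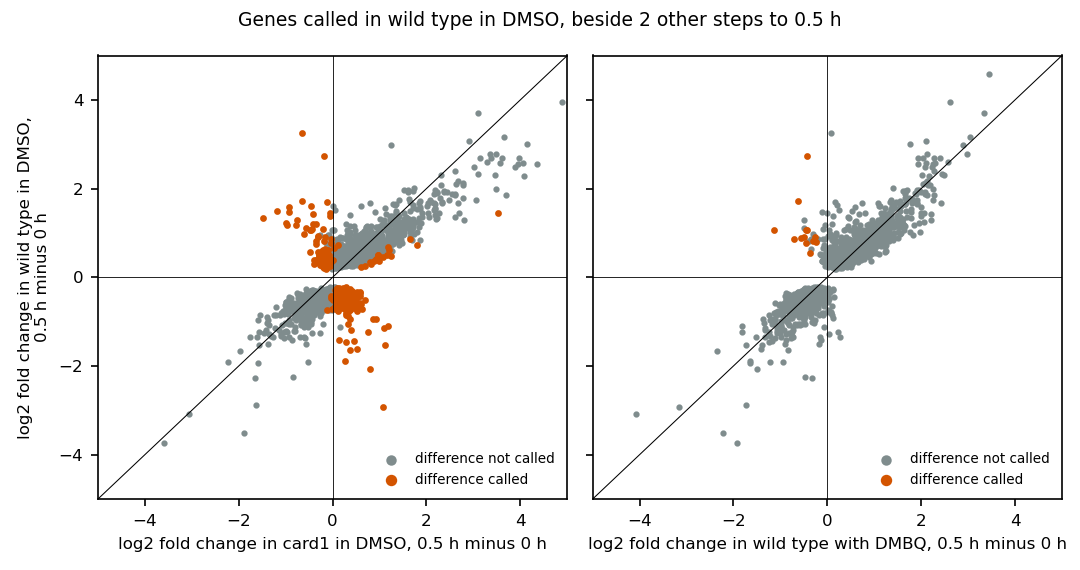
Log2 fold change of the 1676 genes called in wild type in DMSO (y axis) against that of the same genes in card1 in DMSO (left, x axis) and in wild type with DMBQ (right, x axis), all 0.5 h minus 0 h; the diagonal marks equal change. Orange points are genes whose responses differed by the test of the difference, and they are many on the left (353 of the 1676) and few on the right (13). That test reuses the wild-type DMSO libraries by which the 1676 genes were called.

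Plastid-encoded transcripts were higher at 0.5 h than at 0 h in DMSO, but not against the other WT libraries of 0 h. Of 90 plastid genes tested 37 were called higher and none lower (median 0.76), and plastid genes took 1.32 to 1.40% of gene counts at 0.5 h, against 0.459 to 0.930% at 0 h. ATCG00220 had 205, 219 and 313 CPM at 0.5 h, against 45.7, 7.01 and 61.7 CPM at 0 h (log2 fold change 2.74 ± 0.51, adjusted p = 0.000568). The WT libraries of 0 h labelled DMBQ had received the agent for no time, and they held 1.12 to 1.22% of counts on plastid genes. The 2 sets of 0 h libraries differed in 25 genes (0.126%), all plastid genes and all higher in the DMBQ-labelled set. Set against that baseline, the same 0.5 h libraries had 3 plastid genes higher and 24 lower (median -0.36), and ATCG00220 was not called (1.25, adjusted p = 0.102). The direction of the plastid genes thus turned with the choice of 0 h libraries. Over all genes the DMBQ-labelled baseline gave 1427 calls (7.19%), 829 higher (4.18%) and 598 lower (3.01%).

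Genes called higher more often had a single exon, and those called lower had longer transcripts. The 71 genes at least 2-fold lower did not share this trait of the lower genes. Among protein-coding genes, 253 of the 994 higher ones (25.5%) and 78 of the 196 at least 2-fold higher (39.8%) had a single exon, against 15.1% of the 19240 tested. Of the lower ones 9.18% had a single exon, but of the 71 at least 2-fold lower 29.6% did. The median transcript was 1649.5 bases for genes called higher and 2414.5 bases for those called lower, against 1695 bases for all tested. It was 1454.5 bases for genes at least 2-fold higher and 1713 bases for those at least 2-fold lower. AT1G33760 and ZAT7 each have 1 exon, and SPA1 has 8. Across 19714 genes the fold change fell with transcript length (Spearman's rho -0.196, a description over genes that are not independent). When transcript length and GC were offset in the model there were 1592 calls, 1087 higher and 505 lower, and 1374 of them were among the 1676.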

How the data were processed

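RNA from whole seedlings was sequenced from mRNA libraries (KAPA HyperPrep, per the labels' protocols). The authors deposited raw counts per gene, made with HISAT2 2.1.0 and HTSeq 0.6.1 on TAIR10, per the submitters' processing notes. Whether counting used strand is not given in the sources used here. The table held 33602 genes and 5 entries for reads assigned to none; neither library sizes nor tests included the 5 (no feature 1.34 to 1.83%, ambiguous 0.656 to 0.696% and not uniquely aligned 7.41 to 11.6% in the 6 libraries). Counts were fitted with edgeR 4.0.16 (R 4.3.3; quasi-likelihood test, robust, TMM factors, filterByExpr with a minimum count of 10) over all 48 libraries in 16 groups, with 32 residual degrees of freedom. Benjamini-Hochberg adjustment ran over all genes tested in each comparison, and genes under 0.05 were called. Standard errors come from the fold change and its F statistic. The procedure was tested on simulated counts in which 200 genes were changed. These counts held no trend with transcript length and no link between replicate numbers, so the simulation does not bear on either.

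Genes named are CARD1, the 20 largest rises and 15 largest falls of called genes whose groups do not overlap and whose log2 CPM averages 1 or more, up to 4 members of each list by adjusted p, and up to 5 genes per sign of each difference. Other list members named were chosen after their values were seen. The comparison and the 33 lists were chosen with earlier results of these data known. Coordinates, exons and the 250-base windows come from RefSeq TAIR10.1, which annotates 97.7% of the gene identifiers.

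The labels give replicate numbers in each group. Deviations from the group means correlated weakly between same-numbered WT DMSO libraries of 0.5 h and 0 h (r = 0.141, 0.291 and 0.139). Between libraries of different numbers r was -0.15 to 0.0115. The labels do not state that the numbers pair samples. The calls given above come from the fit without a replicate block, and with that block 1989 genes were called. Alternatives covered scaling, filters, DESeq2 1.42.0, the replicate block, length and GC offsets, the 0 h baseline and leaving out each library.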

Additional observations from a re-analysis of the deposited data

Results flagged for a closer look

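The responses of WT and card1 in DMSO differed in 1269 genes by the test of the difference itself, and those of WT with DMBQ and in DMSO in 53. Differences are WT minus card1, or DMBQ minus DMSO, in log2 units, by edgeR's quasi-likelihood test with Benjamini-Hochberg adjustment.

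Between WT and card1, the response was lower in WT for AT4G33810 (-2.64), AT1G54790 (-2.27), AT1G55430 (-2.26), AT4G24430 (-2.23), AT4G10940 (-2.19), BGLU34 (-2.14), BGLU35 (-1.88) and the nuclease gene BFN1 (-1.75). Smaller differences were those of GLU1 (-0.907), a ferredoxin-dependent glutamate synthase, EIN2 (-0.497) and SCR (-0.359), a root patterning factor. The organelle genes named had the higher response in WT, with ATCG00220 at 2.93, ATCG00150 at 2.83, ATCG00650 at 2.66, ATCG00660 at 2.51 and ATMG01130 at 2.45. The plastid median in WT was 0.76 against the DMSO-labelled 0 h libraries, but -0.36 against the DMBQ-labelled ones. In card1 it was -0.17. For mitochondrial genes the same 3 medians were 0.44, -0.17 and -0.35. The difference between WT and card1 was not tested with the DMBQ-labelled 0 h libraries. Without card1 DMSO 0 h replicates 1 and 2, in which expression fell with transcript length, 3 of the 1269 genes were called, in a fit that leaves 1 library for card1 at 0 h.

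Between DMBQ and DMSO, the response was higher with DMBQ for AT2G43120 (4.87), AT2G22880 (2.94), GT72B1 (2.46), AT1G30700 (2.29) and ACA2, an alpha carbonic anhydrase (2.29). It was lower with DMBQ for the plastid genes ATCG00220 (-3.18), ATCG00510 (-3.12), ATCG01100 (-2.93), ATCG01090 (-2.91), ATCG00730 (-2.55) and ATCG00480 (-1.5). The WT libraries of 0 h labelled DMBQ and those labelled DMSO differed in 25 genes, all of them plastid genes.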

How the results depend on the processing

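The count of 1676 genes between 0.5 h and 0 h in WT stayed within 1.5 times under other scaling factors, DESeq2, other filters and another 0 h baseline. It was 1989 with the replicate block, 3227 with the replicate block in a fit to the 6 libraries compared, 6 in a test against a log2 fold change of 1, and 1015 to 1349 when 1 library was left out. A fit to the 6 libraries compared without the block gave 1554 calls, of which 1240 were among the 1676. The 1269 differences between WT and card1 were 1 in a fit to the libraries compared, 22 there with the replicate block, 1540 with the replicate block in the full fit, 107 with length and GC offsets, 148 with these and the replicate block, 0 in the test against 1 (91 genes at an unadjusted p under 0.05), and 356 to 3396 when 1 library was left out. With card1 DMSO 0 h replicates 1 and 2 both left out, which leaves 1 library in that group, they were 3. The 53 differences between DMBQ and DMSO were 104 with DESeq2, 90 in a fit to the libraries compared, 93 with the replicate block, 206 with both, 5 in the test against 1, 18 with nuclear genes only, and 22 to 93 when 1 library was left out. The causes of these shifts were not tested. The WT minus card1 difference of EIN2 turned to 0.00772 with length and GC offsets and to 0.00867 with these and the replicate block. Against the DMBQ-labelled 0 h libraries the changes of ATCG00510 and ATCG00730 turned to -1.28 and -0.96. Of 118 named genes called, none changed direction among the other alternatives, 50 were called under every one except the test against 1, and 17 to 31 lost the call when 1 library was left out. Leaving out both card1 libraries and fitting nuclear genes only were chosen after seeing the data. Depth limits genes near 1 CPM, for which a library held about 10 counts or fewer.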
